A study of Mus musculus with 2 samples.

Results

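Conventional type 2 dendritic cells (cDC2) of the inflamed colon were taken from single-cell RNA libraries of sorted immune cells, and 220 of 13923 kept cell barcodes met the rule for them. The members were chosen by counts of a few genes in each barcode. A barcode needed at least 1 UMI (unique molecular identifier, 1 counted RNA molecule) of Cd209a or Flt3, at least 5 of Cst3 and at least 20 of the MHC class II genes H2-Aa, H2-Ab1 and Cd74 together. It also had to lack Xcr1, Clec9a, Siglech and Cd3e, to hold at most 2 UMIs of the C1q genes and at most 1 of Cd79a, and to stay under 5 UMIs of Fscn1 and Ccl22. Kept barcodes had at least 1000 UMIs, at least 500 genes and under 5% of UMIs from mitochondrial genes. The library labelled WT gave 128 members among 6005 kept barcodes and the library labelled Ring1AKO gave 92 among 7918.

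Both groups were C57BL/6 mice of 8-10 weeks that carried colitis from dextran sodium sulfate (DSS) in the drinking water. One group was wild type and the other was Ring1AKO, a whole-body knockout of Ring1A (gene symbol Ring1), a catalytic subunit of the Polycomb repressive complex that ubiquitinates histone H2A. Lamina propria cells of several littermate mice per genotype were pooled, living CD45+ cells were sorted, and 1 droplet library was made per genotype, with no untreated animals analysed here. With 1 library per genotype there is no replicate error and no test between genotypes, so genotype and library cannot be told apart. Every interval below is a 95% interval that covers counting error only. Ring1 was counted 22 times in the WT members and 11 times in the Ring1AKO members, or 12.6 and 8.70 counts per 1000000 UMIs (CPM). These counts from the 3′ end do not test whether the gene was disrupted, so the libraries are named by their labels.

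Dendritic cells take up antigen in tissue, process it onto MHC molecules and carry it to lymph nodes to prime T cells. The cDC2 branch depends on the growth factor receptor FLT3 and on the transcription factor IRF4, presents antigen mainly on MHC class II to CD4 T cells, and differs from the cDC1 branch, which depends on IRF8 and BATF3 and takes in antigen from dead cells. In the colon, cDC2 overlap in surface phenotype with monocyte-derived cells, which enter in numbers during colitis and also carry MHC class II.

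The members were deep cells. Their median was 13116 UMIs and 2957 genes in the WT library and 12704 UMIs and 2761 genes in the Ring1AKO library, and they summed to 1749368 and 1264950 UMIs. No barcode sequence was shared by members of both libraries, and 11 were shared among all kept barcodes. Cd209a alone admitted 23 WT and 17 Ring1AKO members, Flt3 alone 66 and 38, and both genes 39 and 37. A single UMI of these genes carried the entry of 40 WT members and 19 Ring1AKO members. Without an entry gene but with every other criterion met, 327 WT and 61 Ring1AKO barcodes stood outside the gate, while 66 and 60 were outside it only through Xcr1 or Clec9a. Just inside the limit on Fscn1 and Ccl22, at 3 or 4 UMIs, were 3 members of each library, and just outside it, at 5 or 6 UMIs, were 6 WT and 3 Ring1AKO barcodes. For Cst3, 8 WT and 3 Ring1AKO members had 5 to 7 UMIs, and 5 barcodes of each library had 2 to 4.

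Genes that the rule did not use bore on the label to different degrees. Plbd1, a lysosomal phospholipase-like protein, had at least 1 UMI in 123 of 128 WT members (96.1%, 91.1 to 98.7) and in 85 of 92 Ring1AKO members (92.4%, 85.0 to 96.9). It did not set them apart, at 578 and 610 CPM against 1250 and 1213 CPM in cDC1, 439 and 305 CPM in monocytes and 583 and 388 CPM in C1q macrophages. Clec10a, a galactose-binding C-type lectin of cDC2, stood at 166 CPM in the WT members and 232 CPM in the Ring1AKO members, against 5.24 and 2.61 CPM in cDC1 and 19.5 and 4.92 CPM in monocytes. Irf4 stood at 80.6 and 107 CPM in the members at 8.98 and 6.10 CPM in cDC1, and higher at 126 and 129 CPM in mature migratory dendritic cells and 269 and 267 CPM in B cells. Sirpa, the CD47 receptor that marks cDC2 over cDC1, was at 121 and 75.1 CPM in the members and 8.98 and 0.871 CPM in cDC1, but at 247 and 187 CPM in monocytes and 311 and 377 CPM in C1q macrophages. Zbtb46, a transcription factor shared by conventional dendritic cells, was sparse at 16.6 (11.1 to 23.8) and 31.6 (22.6 to 43.1) CPM, and at or below 3.28 CPM in monocytes and C1q macrophages. It had at least 1 UMI in 22 WT members (17.2%) and 29 Ring1AKO members (31.5%). With every cell thinned to 2000 UMIs these shares were 3.17% and 5.56%, against 0.110% and 0.436% in B cells, and their intervals overlapped. Of the genes in the rule, Cd209a summed to 237 CPM in the WT members and 295 CPM in the Ring1AKO members, Flt3 to 126 and 142 CPM, and Cst3, a cysteine protease inhibitor abundant in dendritic cells, to 4662 and 6463 CPM.

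**Figure D1:**
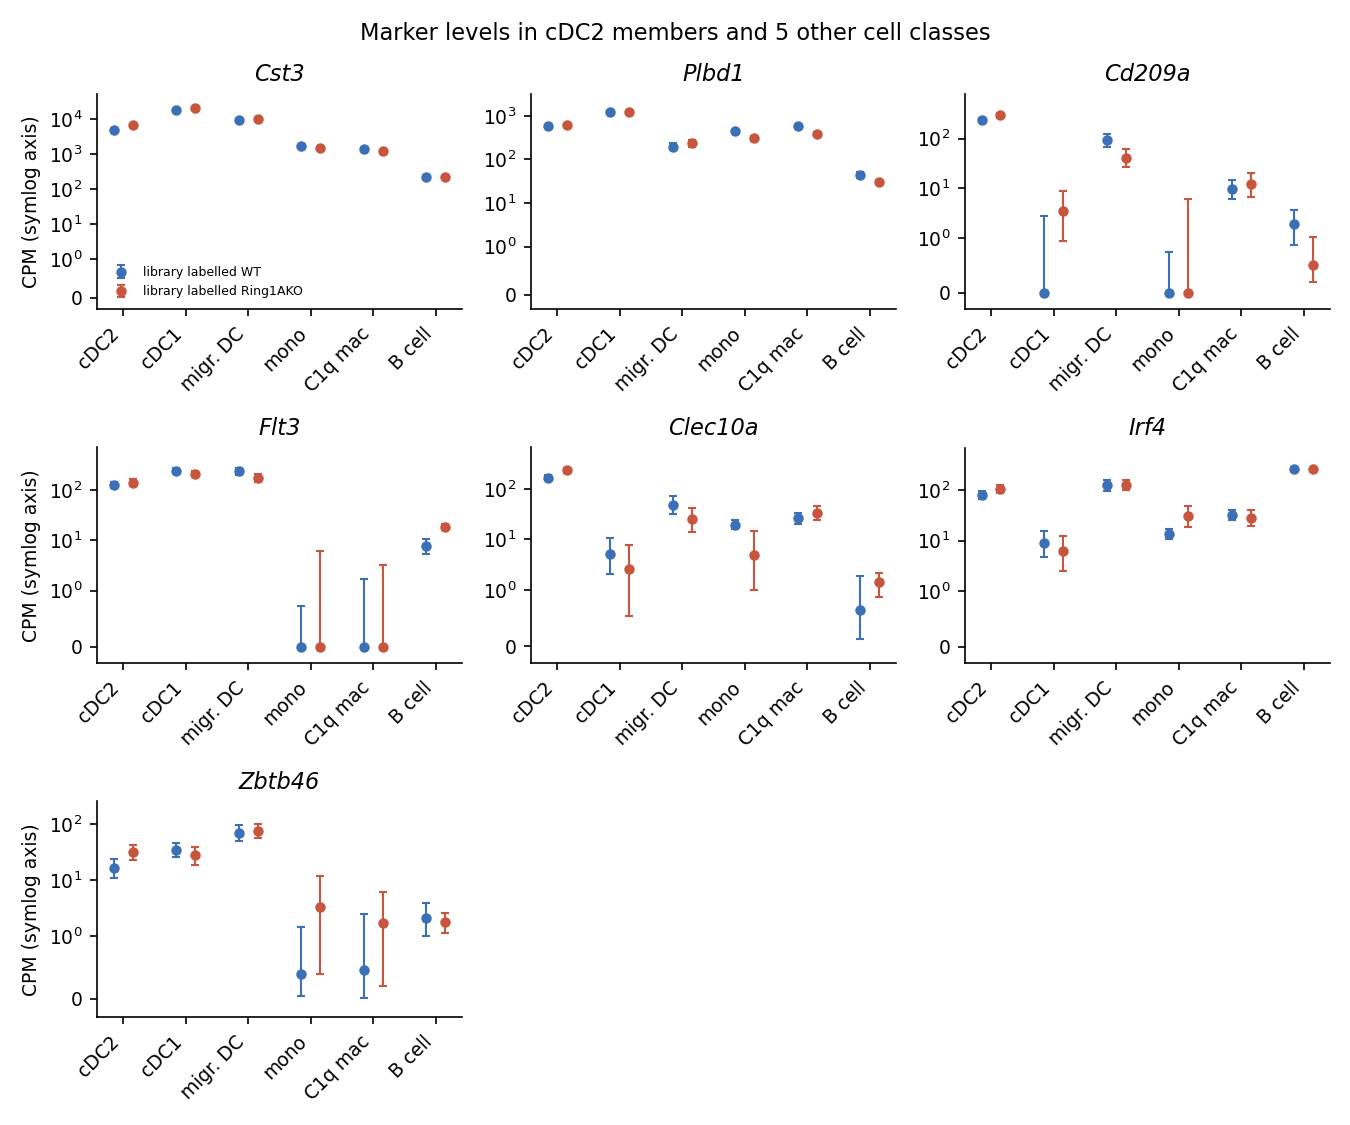
Levels of 7 marker genes in the members and in 5 other cell classes, in CPM on a symlog axis (linear near 0), with 1 point per library and 95% exact Poisson intervals. Clec10a is highest in the cDC2 class in both libraries, and Flt3 is at 0 in monocytes and C1q macrophages by their rules.

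The members were next set against the classes nearest to them, which were picked by similar count rules, so the values describe these gates. The ratio of CPM passed 2-fold in the same direction in both libraries for 7.12% of genes (higher in members) and 4.53% (lower) against cDC1. These shares were 7.4% and 5.32% against mature migratory dendritic cells, 6.34% and 7.98% against monocytes, and 4.77% and 8.78% against C1q macrophages. Against cDC1, the genes furthest above included the C-type lectins Clec4n, Clec10a, Clec4a1, Clec4a2 and Clec4a3 and the transglutaminase F13a1. F13a1 is also a monocyte marker, at 51.4 and 34.8 CPM in the members. It stood at 348 CPM in the WT-only sub-cluster 6 described below, against 21.1 CPM in the other members. Clec4n, the Dectin-2 receptor for fungal mannans, had 65.2 and 107 CPM in the members and log2 ratios of 4.87 and 4.95. The genes furthest below included Cadm1, a cDC1 adhesion molecule, at 1.71 and 7.11 CPM in the members, and Apol7c. Against monocytes, the natural killer cell receptor gene Klrd1 (240 and 270 CPM in the members, log2 ratios of 5.28 and 7.37), the stem cell factor receptor Kit, the surface protein Cd7 and the MHC class II genes H2-Oa and H2-DMb2 were furthest above. Cd7 and Klrd1 led the list against C1q macrophages as well, and Pf4 and Ms4a7, both macrophage genes, were among those furthest below. Against mature migratory dendritic cells, Ly6c2, Ccr2 and Cd209d stood above, and Il12b, which encodes the p40 subunit of interleukin-12, stood below with 1 UMI in the members of each library. Ly6c2 and Ccr2 are also monocyte markers. Ly6c2 stood at 378 and 247 CPM in the members. In the Ring1AKO library 280 of its UMIs lay in 8 cells of sub-cluster 4, described below, so its level there does not describe the members as a whole.

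The members were not uniform. Unsupervised clustering without the genes of the rule, the interferon lists and the genes named in the library comparison split them into 7 sub-clusters, and other resolutions gave 4 and 9. Sub-cluster 1, with 23 WT and 20 Ring1AKO cells, was led by cell-cycle genes such as Pclaf and Top2a and by Cd24a. Its cDC1 markers summed to 1516 CPM, and Irf8 stood at 671 CPM in its WT cells and 486 CPM in its Ring1AKO cells, while Clec10a was at 0 and 27.2 CPM. The cDC1 marker sum was the highest of the 7 sub-clusters, although Xcr1 and Clec9a are absent by the rule, so these cells do not carry the cDC2 name well. Sub-cluster 2, with 21 and 20 cells, was led by Itgae, the integrin CD103, at 193 and 77.5 CPM, and had Irf4 at 193 and 155 CPM with Irf8 at 24.5 and 25.8 CPM. Sub-cluster 4, with 18 and 17 cells, was led by Atf3 and the heat shock genes Hspa1a and Hspa1b. Plasma cell genes summed to 32192 CPM in it and to 4738 CPM once the richest cell of each library was left out, an alternative chosen after seeing the data. Sub-cluster 7, with 7 and 9 cells, was led by Fabp5, Il4i1 and Ccr7.

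The other sub-clusters were mostly of 1 library, so that a cell state and a library cannot be told apart there. Sub-cluster 3 held 39 WT cells and 1 Ring1AKO cell and was led by Ly6a and Parp14. Only the listed interferon genes were left out of the clustering, so unlisted genes that vary with them could still shape it. The interferon sums given by sub-cluster are therefore not independent of the clustering. Sub-cluster 5 held 3 WT and 25 Ring1AKO cells and was led by the cystine transporter Slc7a11 and by Timp1. Sub-cluster 6 held 17 cells, all from the WT library, and its leading genes were those of monocytes and macrophages, among them Apoe, Fn1, Fcgr3 and Lyz2 (11869 CPM). Clec10a was 23.2 CPM in it. By their leading genes these cells met the rule but not the name. MHC class II genes other than those of the rule summed to 7145 CPM in them, against 10377 to 16981 CPM in the other sub-clusters.

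**Figure D2:**
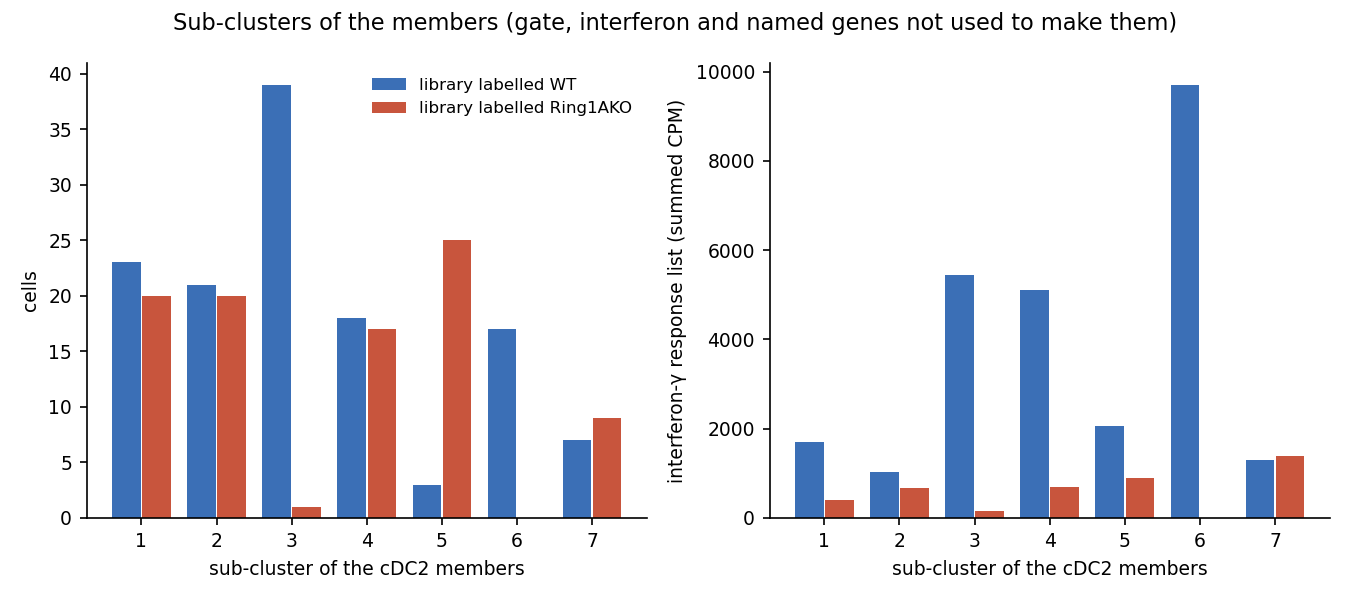
Cells of each library in the 7 sub-clusters (left) and the summed CPM of the interferon-γ response list in them (right). Sub-clusters 3 and 6 are nearly or wholly WT, sub-cluster 5 is mostly Ring1AKO, and in sub-cluster 7 the list stands at 1306 CPM in the WT cells and 1390 CPM in the Ring1AKO cells.

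The entry gene also divided the members. Those that held Cd209a and Flt3 together had Clec10a at 341 CPM in the WT library and 365 CPM in the Ring1AKO library. Those admitted by Flt3 alone had 35.5 and 59.1 CPM. Irf8 ran the other way, at 198 and 62.4 CPM in the cells with both genes and at 407 and 373 CPM in the cells with Flt3 alone. Members with at least 1 UMI of Itgae numbered 26 in the WT library and 17 in the Ring1AKO library. Their Cd24a, a surface glycoprotein of mucosal cDC1 and CD103+ cDC2, stood at 215 and 291 CPM, against 98.8 and 138 CPM in the members without it. The interferon-γ response list, described below, was lower in the Ring1AKO cells in each entry group, at 5097 and 913 CPM with Cd209a alone, 4388 and 760 CPM with Flt3 alone, and 3033 and 560 CPM with both.

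As a share of kept barcodes, the members were 2.13% of the WT library (1.78 to 2.53) and 1.16% of the Ring1AKO library (0.938 to 1.42), a log2 ratio of -0.88 (-1.26 to -0.49). The share depends on what else was counted. B cells made up 15.2% of the WT library and 35.0% of the Ring1AKO library, and monocytes 8.63% and 0.821%. With B cells left out of the denominator, an alternative chosen after seeing the data, the shares were 2.51% and 1.79% and the log2 ratio was -0.49 (-0.88 to -0.11). With members that held 3 or more UMIs of the monocyte genes Ly6c2, Fcgr1 and Fn1 left out, 79 WT and 82 Ring1AKO members remained and the log2 ratio was -0.35 (-0.79 to 0.10). Over the same kept barcodes, the log2 ratio was -0.43 (-0.98 to 0.12) for cDC1, -0.05 (-0.67 to 0.58) for mature migratory dendritic cells, -0.87 (-1.15 to -0.60) for C1q macrophages and -3.39 (-3.76 to -3.02) for monocytes.

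Levels were then compared between libraries, over 5266 genes with at least 50 UMIs in the members. Called here means a ratio of CPM past 2-fold. Of these genes, 393 (7.46%) were at least 2-fold lower in the Ring1AKO members and 63 (1.2%) at least 2-fold higher, together 8.66%. The median log2 ratio of all of them was -0.20, so a gene at 0 stood slightly above the typical gene. Scaled to that median, 236 genes were lower and 122 higher, and lower genes still led. In these sums a change per cell and a change in which cells met the rule cannot be told apart.

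The cells themselves differed in their load of monocyte genes. At least 3 UMIs of Ly6c2, Fcgr1 and Fn1 were held by 49 WT members (38.3%, 29.8 to 47.3) and by 10 Ring1AKO members (10.9%, 5.34 to 19.1). The 8 monocyte markers summed to 4067 CPM in the WT members and 1657 CPM in the Ring1AKO members. Plac8 was the most abundant of them (3162 and 1228 CPM). Of the 7 measured, 5 were called lower (7.46% of all genes), none higher, and their median log2 ratio was -1.30. Without these cells the median of the monocyte markers was -0.64, over the 3 still measured. A smaller difference here was built in, since the cells were left out for holding monocyte genes. Values without these cells were also computed for the interferon, MHC class II and mature migratory lists and for the genes with the highest and lowest ratios. Their part in the other gene lists was not tested.

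The clearest difference lay in genes induced by interferon-γ, the T cell and innate lymphocyte cytokine that induces the transcription factor IRF1 and primes antigen-presenting cells. Of 31 genes on the list, 20 were measured, 17 were called lower in the Ring1AKO members (against 7.46% of all genes), none higher, and all 20 had ratios below 0. The median log2 ratio was -2.76, and the list summed to 4088 CPM in the WT members and 702 CPM in the Ring1AKO members. Among the members with under 3 UMIs of the monocyte genes the sums were 1940 and 763 CPM. The median there was -1.56, over the 12 genes still measured. Without sub-clusters 1 and 6, a choice made after seeing the data, the sums were 3736 and 812 CPM and the median was -2.29.

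Interferon-γ acts on DNA through 2 short elements, the GAS site (gamma-activated sequence) and the ISRE (interferon-stimulated response element), the latter bound by IRF1 and related factors. RefSeq promoters (GRCm38.p6, 250 bases before to 50 after the start) were held for 15 of the 20 measured genes and were searched on both strands for GAAANNGAAA as ISRE letters and TTCNNNGAA as GAS letters. The first was found in 9 of the 15 genes (60.0%), against 3.99% of 27025 genes with a promoter, and the second in 5 (33.3%), against 9.55%. At least 1 of them was in 11 genes (73.3%), against 12.9%. The list was written by hand as genes induced by interferon-γ, so such shares were to be found whatever the libraries held. They describe the list and bear nothing on the difference between libraries. The 2 motifs overlapped each other in no promoter of the list and in 24 of 32851 promoters in all. Stretches from 6 genes are shown because they hold 1 element alone, both, or repeated matches. Capitals mark the letters that matched, and each stretch reads 5′ to 3′ on the gene's strand.
Cxcl10, chr5:92349078-92349117, minus strand, ISRE: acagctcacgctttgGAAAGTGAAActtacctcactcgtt
Gbp2, chr3:142620589-142620628, plus strand, ISRE: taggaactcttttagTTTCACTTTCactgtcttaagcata
Irf1, chr11:53769909-53769947, plus strand, GAS: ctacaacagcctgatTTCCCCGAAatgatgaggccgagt
Igtp, chr11:58199496-58199546, plus strand, GAS and ISRE: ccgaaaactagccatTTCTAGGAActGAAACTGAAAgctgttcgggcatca
Irgm1, chr11:48871421-48871465, minus strand, overlapping ISRE matches: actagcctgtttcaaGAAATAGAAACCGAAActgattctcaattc
Socs1, chr16:10785589-10785634, minus strand, overlapping ISRE matches: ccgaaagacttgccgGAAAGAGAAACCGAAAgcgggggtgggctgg
A match describes the letters in this window and is no proof of binding. The Cxcl9 promoter held neither set of letters, which says nothing of its factors.

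The pathway's transcription factor and its inhibitor were lower together. Irf1 had 686 and 96 UMIs in the WT and Ring1AKO members, or 392 and 75.9 CPM (log2 -2.36, -2.69 to -2.06). Socs1, the feedback inhibitor of the receptor, had 75 and 13 UMIs (log2 -1.97, -3.04 to -1.20). Neither interval reached 0. The receptor itself did not stand apart: Ifngr1 was at 346 and 388 CPM (log2 0.17, -0.01 to 0.34) and Ifngr2 at 131 and 120 CPM (log2 -0.12, -0.43 to 0.18).

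The chemokines Cxcl9 and Cxcl10, which draw CXCR3+ T cells, were both called. Cxcl10, the most abundant gene of the list, had 2147 UMIs in 56 WT members and 114 UMIs in 28 Ring1AKO members, or 1227 (1176 to 1280) and 90.1 (74.3 to 108) CPM, a log2 ratio of -3.76 (-4.05 to -3.50). Its richest WT cell held 16.3% of the WT sum, and without the top cell of each library the levels were 1035 and 69.1 CPM. Cxcl9 had 433 UMIs in 32 WT members and 36 UMIs in 9 Ring1AKO members, or 248 and 28.5 CPM (log2 -3.08, -3.65 to -2.63). Without members rich in monocyte genes (at least 3 UMIs of Ly6c2, Fcgr1 and Fn1) the log2 ratios were smaller, -1.84 for Cxcl10 and -1.82 for Cxcl9. In barcodes under 100 UMIs, Cxcl10 stood at 441 and 164 CPM and Cxcl9 at 90.2 and 7.49 CPM, so the Cxcl10 level of the Ring1AKO members lay below that of the free RNA of their library.

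The effector GTPases, which attack the vacuoles of intracellular microbes, were lower in every measured case. Gbp2, a guanylate-binding protein, had 820 UMIs in 71 WT members and 36 UMIs in 19 Ring1AKO members, or 469 (437 to 502) and 28.5 (19.9 to 39.4) CPM, a log2 ratio of -4.00 (-4.57 to -3.56), which was -2.57 without members rich in monocyte genes. Gbp3, Gbp4, Gbp5, Gbp7 and Gbp9 had log2 ratios between -2.95 and -2.25. Iigp1, an immunity-related GTPase, had 181 UMIs in 29 WT members and 1 UMI in the Ring1AKO members, a log2 ratio of -6.04 with a counting interval of -12.3 to -4.54. Ifi47, of the same family, had 138 and 6 UMIs (log2 -3.84, -5.53 to -2.90), Irgm1 had 176 and 21 UMIs, and Igtp had 69 and 6. Batf2, a transcription factor of the response, had 66 and 1 UMIs.

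Measured list members that were not called were Cd274 (the ligand PD-L1), Serpina3g and Fcgr4. Cd274 stood at 354 and 224 CPM (log2 -0.66, -0.87 to -0.46), and the other two had log2 ratios of -0.94 and -0.83. Acod1, which makes itaconate, stood at 91.5 and 34.0 CPM (log2 -1.40, -1.95 to -0.93), in 20 WT and 4 Ring1AKO members. Ido1, Ubd and Gbp10 had no UMI in the members of either library.

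**Figure D3:**
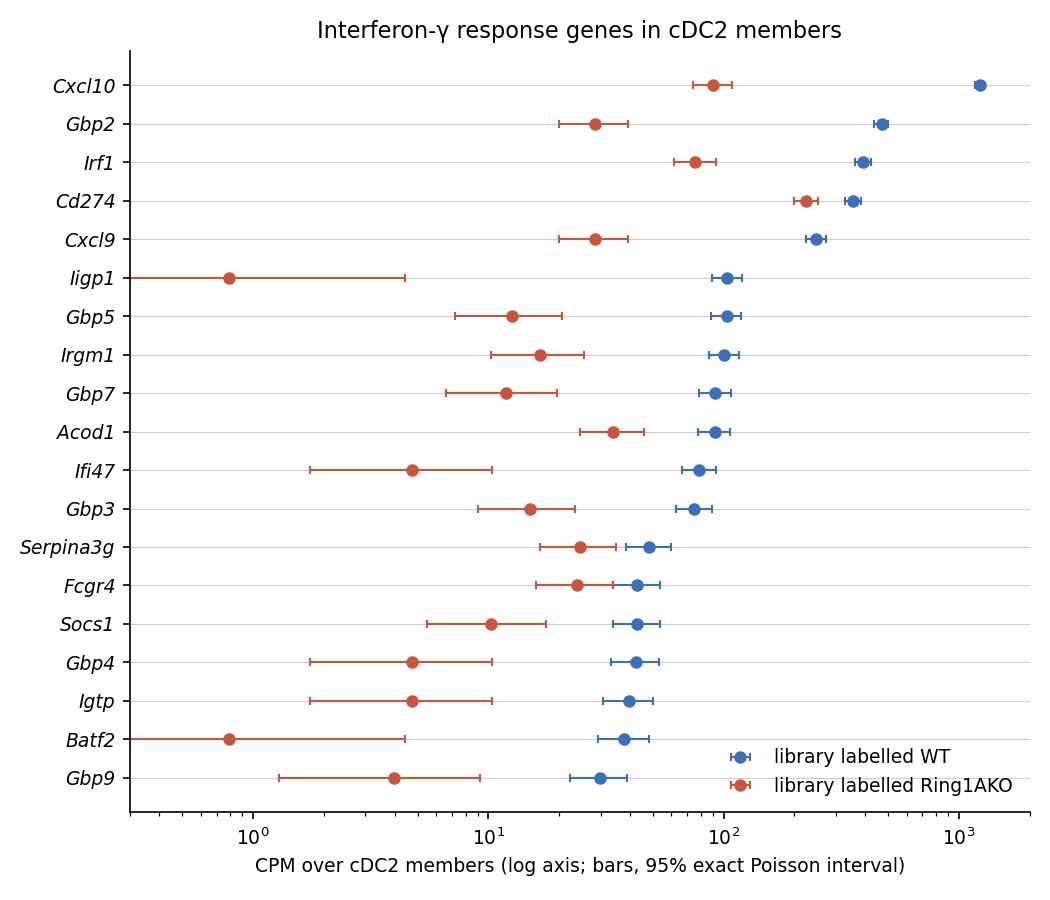
Level of 19 of the 20 measured interferon-γ response genes over all members of each library, in CPM on a log axis with 95% exact Poisson intervals (lower ends below 0.3 run off the axis). Each WT point lies to the right of the Ring1AKO point, from 1227 against 90.1 CPM for Cxcl10 to 29.7 against 3.95 CPM for Gbp9.

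In single cells the 2 distributions overlapped. The list took a median of 14.5 of every 10000 UMIs in the WT members, with a range of 0 to 424, and 5.25 in the Ring1AKO members, with a range of 0 to 37.3. The upper quartile of the WT members was 57.5, above the richest Ring1AKO member. With cells thinned to 2000 UMIs, 36.5% of WT members (28.1 to 45.6) and 5.56% of Ring1AKO members (1.83 to 12.5) had a UMI of Gbp2, and unthinned the WT share was 55.5%. The same share in B cells was 4.28% and 0.691%. For Cxcl10 the thinned shares were 24.6% and 11.1% in the members against 3.51% and 1.45% in B cells.

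**Figure D4:**
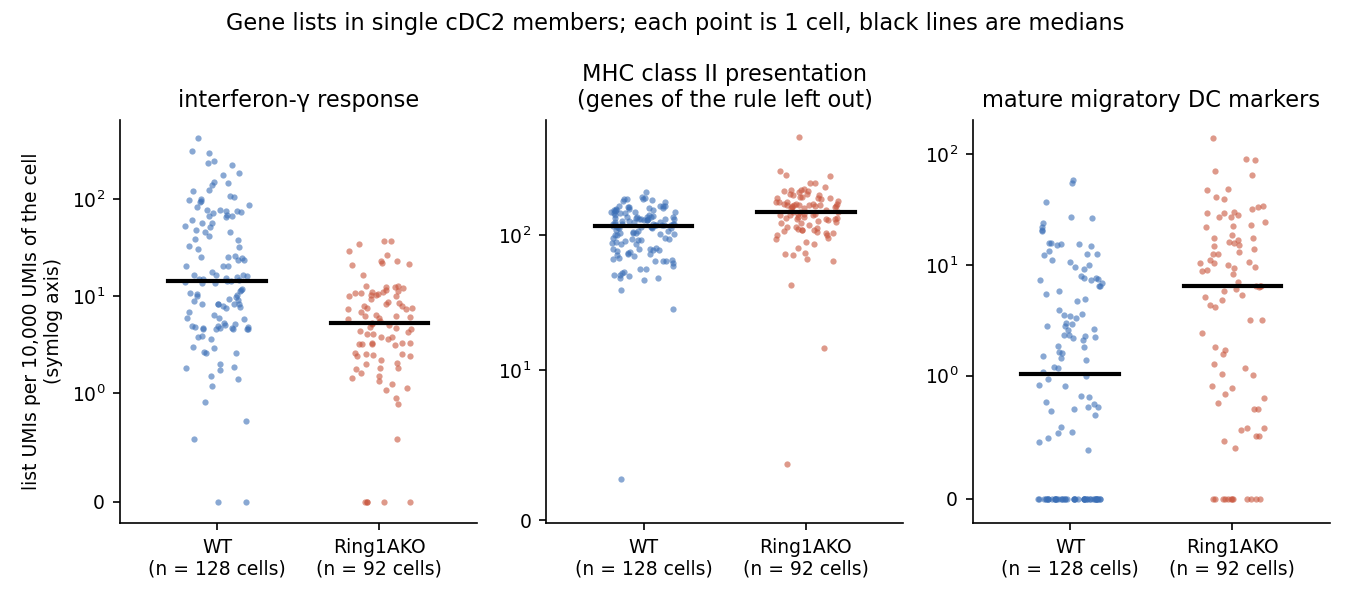
UMIs of 3 gene lists per 10000 UMIs in each member, by library, on symlog axes; each point is 1 cell and the black line is the median. For interferon-γ response genes the medians are 14.5 (WT) and 5.25 (Ring1AKO), for MHC class II genes other than those of the rule 117 and 148, and for mature migratory dendritic cell markers 1.04 and 6.49.

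Sub-cluster by sub-cluster, the list was lower in the Ring1AKO cells wherever both libraries had cells, except in sub-cluster 7. It summed to 1702 and 392 CPM in sub-cluster 1, to 1024 and 672 CPM in the Itgae-led sub-cluster 2, and to 5096 and 702 CPM in sub-cluster 4. In sub-cluster 7 it summed to 1306 and 1390 CPM, over 7 and 9 cells. Sub-cluster 3 had 5434 CPM over 39 WT cells and 152 CPM in 1 Ring1AKO cell. Sub-cluster 5 had 2054 CPM over 3 WT cells and 888 CPM over 25 Ring1AKO cells. Both of these comparisons rest on few cells of 1 library. The WT-only sub-cluster 6 had the highest sum, 9709 CPM. Cxcl10 in sub-cluster 2 was 91.7 CPM in the WT cells and 132 CPM in the Ring1AKO cells. The difference was therefore uneven among the members.

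Other classes showed where the members stood. Of the list, 3 of 9 measured genes were called lower in cDC1 (6.02% of all genes measured there), 3 of 8 in mature migratory dendritic cells (5.23%), 22 of 25 in monocytes (11.1%), 18 of 23 in C1q macrophages (4.07%) and 18 of 22 in B cells (4.62%). Over the 9 genes measured in both, the median log2 ratio was -2.36 in the members and -0.67 in cDC1, and 8 of the 9 were lower in the members. Over 8 such genes it was -2.65 against -0.67 in mature migratory dendritic cells. Over 20 genes it was -2.76 against -3.24 in monocytes and -2.76 against -2.15 in C1q macrophages, and over 18 genes -2.61 against -1.61 in B cells. The difference between classes was not tested, as each rests on 1 library per genotype. Cxcl10 stood at 90.5 and 81.0 CPM in cDC1 and at 207 and 205 CPM in mature migratory dendritic cells, where the libraries overlapped within counting error. Monocytes had 1657 and 210 CPM of it.

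**Figure D5:**
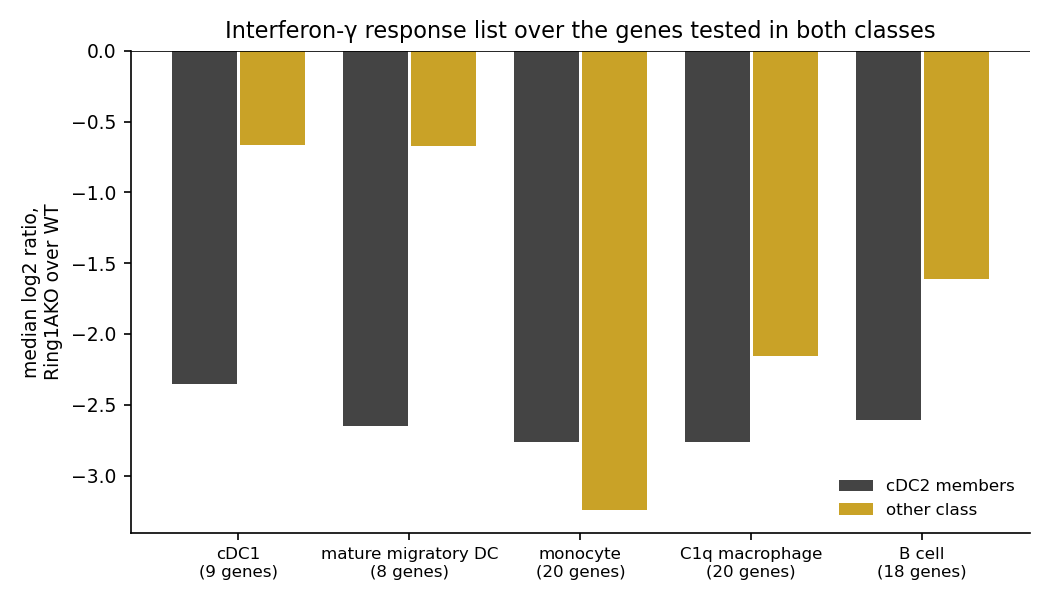
Median log2 ratio (Ring1AKO over WT) of the interferon-γ response list in the members (dark) and in each of 5 other classes (light), over the genes measured in both. The bars of the members lie between -2.76 and -2.36, those of cDC1 and mature migratory dendritic cells at -0.67, and that of monocytes at -3.24.

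Genes known mainly as targets of type I interferon were lower in a smaller degree. Of 26 measured, 16 were called lower (7.46% of all genes), none higher, and the median log2 ratio was -1.31. Zbp1, a sensor of Z-form nucleic acid, had 273 and 38 UMIs (log2 -2.34, -2.91 to -1.88), Isg15 at 136 and 32.4 CPM (log2 -2.04) and Ifi27l2a at 909 and 225 CPM (log2 -2.01, -2.20 to -1.83). Irf7 was at 72.0 and 26.9 CPM. The most abundant member, Ifitm1, went the other way at 4073 and 6116 CPM (log2 0.59, 0.54 to 0.63), and Ifitm3 stood at 3907 and 3255 CPM. These membrane proteins dominated the list's sum, which was 14862 and 14493 CPM. Among members with under 3 UMIs of the monocyte genes the list's median was -0.44, over the 17 genes still measured. Over the 15 genes also measured in cDC1 the median was -1.08 in the members and 0.14 in cDC1, and over 26 genes it was -1.31 in the members and -1.27 in monocytes, differences that were not tested.

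Antigen presentation on MHC class II is the hallmark function of cDC2, and 3 of its genes are in the rule. None of the 16 measured genes was called in either direction, and the median log2 ratio was 0.23, also among members with under 3 UMIs of the monocyte genes. H2-Eb1, a class II β chain that the rule did not use, had 11115 UMIs in the WT members and 12235 UMIs in the Ring1AKO members, or 6354 and 9672 CPM (log2 0.61, 0.57 to 0.64). H2-Oa, a subunit of the peptide-loading modulator HLA-DO, was at 110 and 205 CPM (log2 0.90, 0.62 to 1.18). Cd74, the invariant chain and a gene of the rule, was at 15725 and 23791 CPM. Ciita, the transcriptional activator of these genes, ran against them at 121 and 60.9 CPM (log2 -0.97, -1.38 to -0.60). A lower Ciita level in the Ring1AKO library was not particular to the members. Ciita stood at 233 and 161 CPM in cDC1, 116 and 33.1 CPM in mature migratory dendritic cells and 41.1 and 3.28 CPM in monocytes. In C1q macrophages it was at 88.5 and 58.6 CPM, and in B cells at 208 and 154 CPM. Per cell and without the 3 genes of the rule, left out after seeing the data, the list took a median of 117 of every 10000 UMIs in WT members and 148 in Ring1AKO members, with ranges of 2.76 to 210 and 3.78 to 540, so the libraries overlapped. Over the 15 genes also measured in cDC1 the median was 0.20 in the members and 0.26 in cDC1. Over 16 genes it was 0.23 in the members and 0.29 in B cells, so a higher median was not particular to the members. It was 0.38 against 0.13 in mature migratory dendritic cells (14 genes) and 0.20 against -0.003 in C1q macrophages (15 genes). Over 13 genes it was 0.16 in the members and -1.12 in monocytes. These differences were not tested. In the MHC class I pathway 2 of 21 genes were called, both lower, a share near the 7.46% of all genes. These were the peptide transporter Tap1 at 258 and 99.6 CPM (log2 -1.37) and the chaperone Pdia3 at 293 and 114 CPM (log2 -1.36). B2m, the light chain, stood at 2270 and 1793 CPM.

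Of 17 measured migration and adhesion receptors 1, Ccr7, was called higher and 2, among them the monocyte marker Ccr2, lower, beside 1.2% and 7.46% of all genes. Ccr7, the receptor that guides dendritic cells along lymphatics, had 595 UMIs in 56 WT members and 1102 UMIs in 65 Ring1AKO members, or 340 (313 to 369) and 871 CPM, a log2 ratio of 1.36. At 2000 UMIs per cell, 27.0% (19.5 to 35.6) and 48.9% (38.2 to 59.7) of members had it, while B cells, which also express it, had 64.0% and 69.2%. It was the most abundant of the 8 mature migratory dendritic cell markers, of which 2 were measured and both called higher. Their median was 1.48, and 2.05 among members with under 3 UMIs of the monocyte genes. The markers summed to 449 and 1178 CPM, and Fscn1 and Ccl22 among them are held down by the rule. In sub-cluster 2, Ccr7 was at 422 and 1140 CPM, while in sub-cluster 1 it was at 499 and 332 CPM. Of the 1102 Ring1AKO UMIs, 345 lay in the 9 Ring1AKO cells of sub-cluster 7, where the levels were 1372 and 3240 CPM. Another 275 lay in the 25 Ring1AKO cells of sub-cluster 5, which had only 3 WT cells. The Ccr7 sums therefore also reflect which cells each library held. A higher level in the Ring1AKO library was not particular to the members. Ccr7 stood at 41.9 and 199 CPM in cDC1, 32.5 and 90.2 CPM in monocytes, 90.3 and 256 CPM in C1q macrophages, 667 and 836 CPM in B cells, and 174 and 393 CPM in barcodes under 100 UMIs. Ccl5, a chemokine for T cells and the other marker measured, was at 82.3 and 251 CPM (log2 1.61, 1.32 to 1.90). In barcodes under 100 UMIs it was higher, at 881 and 1143 CPM. The 25 Ring1AKO cells of sub-cluster 5 held 222 of its 318 UMIs in the Ring1AKO members. A single Ring1AKO cell held 28.6% of its UMIs, and without the top cell of each library the levels were 67.9 and 181 CPM.

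Of 15 measured costimulatory and coinhibitory genes only Tnfsf9, the ligand 4-1BBL, was called (8.66% of all genes in either direction), at 198 and 444 CPM (log2 1.16, 0.97 to 1.36). At 2000 UMIs per cell, 18.3% (11.9 to 26.1) of WT members and 43.3% (32.9 to 54.2) of Ring1AKO members had a UMI of it, against 1.87% and 1.74% in B cells. This difference was not seen in the members alone, since Tnfsf9 stood at 228 and 538 CPM in monocytes and at 215 and 324 CPM in C1q macrophages. Cd83 stood at 1086 and 1500 CPM (log2 0.47, 0.37 to 0.56) and Cd86 at 277 and 367 CPM (log2 0.41, 0.22 to 0.59), both short of 2-fold.

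Among 11 measured cytokine genes 3 were called higher and 2 lower, beside 1.2% and 7.46% of all genes, and some of these calls rested on 1 cell. Il1b, the most abundant, stood at 6194 and 5995 CPM (log2 -0.05). Areg, an epidermal growth factor receptor ligand of tissue repair, had 248 UMIs in 24 WT members and 458 UMIs in 28 Ring1AKO members (142 and 362 CPM, log2 1.35, 1.13 to 1.58). It was also higher in the Ring1AKO library in monocytes (49.2 and 523 CPM), mature migratory dendritic cells (16.6 and 248 CPM) and cDC1 (3.74 and 41.0 CPM). Ebi3, the shared subunit of interleukin-27 and interleukin-35, was at 12.0 and 56.1 CPM and had UMIs in 17 and 39 cells. Il1a was at 7.43 and 33.2 CPM, with 78.6% of the Ring1AKO count in 1 cell. Osm, oncostatin M, was at 165 and 71.1 CPM (log2 -1.20). Il22ra2, which encodes the interleukin-22 binding protein made by intestinal dendritic cells, was called lower with 138 and 5 UMIs, but 97.1% of the WT count lay in 1 cell and only 2 WT cells held it. Among 12 measured chemokines, Cxcl1, Cxcl2 and Ccl5 were called higher and Cxcl9 and Cxcl10 lower, beside the same 1.2% and 7.46% of all genes. Higher chemokines were not particular to the members. Those at least 2-fold higher were 5 of 10 in cDC1, 8 of 14 in monocytes and 4 of 16 in C1q macrophages. They were 1 of 12 in B cells and 0 of 11 in mature migratory dendritic cells. Cxcl2, a neutrophil attractant, stood at 396 and 810 CPM (log2 1.03, 0.89 to 1.17), and 1 Ring1AKO cell held 43.2% of its count. Ccl17 had 1 UMI in the WT members and 48 in the Ring1AKO members, below the total needed to be measured, and 1 cell held 64.6% of the latter.

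Of 22 measured genes of lysosomes and endocytosis 2 were called lower, Lyz2 and Mrc1, and 1 higher, with a median of -0.18, beside 7.46% and 1.2% of all genes and their median of -0.20. Lyz2, a lysozyme of monocytes and macrophages, stood at 2311 and 538 CPM (log2 -2.10, -2.22 to -1.99) and had a UMI in 93 of 128 WT members and 53 of 92 Ring1AKO members. It was also lower in B cells (257 and 68.0 CPM), C1q macrophages (5647 and 3731 CPM) and barcodes under 100 UMIs (1487 and 500 CPM). In cDC1 it was at 738 and 697 CPM, and it was higher in monocytes (10929 and 12644 CPM) and mature migratory dendritic cells (68.4 and 409 CPM). The part of free RNA in its counts was not tested. Fcgr1, the high-affinity IgG receptor, was at 54.9 and 15.8 CPM and Apoe at 170 and 60.1 CPM. Of 5 measured macrophage markers, beside the same shares of all genes, 4 were called lower and 1, the tetraspanin Cd63, higher at 12.6 and 59.3 CPM. Mertk was at 0 in both libraries. The 17 cells of sub-cluster 6 held 2560 of the 4043 WT UMIs of Lyz2. By entry gene, Lyz2 was 3044 and 655 CPM with Cd209a alone, 3010 and 177 CPM with Flt3 alone, and 714 and 885 CPM with both. In sub-cluster 2 it was 1458 and 161 CPM, and in sub-cluster 4 it was 1184 and 1482 CPM. The difference in Lyz2 was therefore uneven among the members.

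Genes that define or regulate dendritic cells had few calls in either direction, at shares near or below the 8.66% of all genes. Of 29 measured cDC2 surface genes 1 was called higher (Cd72, 17.7 and 86.2 CPM, log2 2.25) and 2 lower (Fcgr3 and Ms4a4c), with a median of -0.07. Cd72 is a B cell co-receptor also found on myeloid cells, and it had UMIs in 22 WT and 40 Ring1AKO members. Barcodes under 100 UMIs held it at higher levels, 69.3 and 121 CPM, and the part of free RNA in these counts was not tested. Of 26 measured transcription factors 1 was called, lower, and the median was -0.29. Irf8 was at 320 and 200 CPM (log2 -0.68, -0.90 to -0.46). None of the 19 cytokine receptors was called (median -0.25). Of 17 measured Polycomb genes 1, Asxl2, was called lower, the median was -0.41, and Rnf2, the paralogue of Ring1, had 28 and 33 UMIs. Microbial sensors (14 measured, 1 lower, median -0.45), retinoic acid and TGF-β genes (8, none), glycolysis genes (19, 1 lower), and immediate-early genes (29, 1 lower) had shares of calls below or near the 8.66% of all genes. The lower calls in the cell cycle list (2 of 13) were Top2a and Cenpa. The 4 measured cDC1 markers had no call, although Xcr1 and Clec9a are at 0 by the rule.

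Of the 12 highest and 12 lowest ratios among genes with at least 50 CPM in either library, those not yet given were mixed. Chil3 (91 and 2 UMIs, but with a log2 ratio of 0.95 without sub-clusters 1 and 6), F10 (100 and 1), Calhm6 (146 and 3), Thbs1 (1028 and 65) and Ifi204 (198 and 14) were lower in the Ring1AKO members. Without members rich in monocyte genes the log2 ratio moved from -5.19 to -1.36 for F10, from -4.73 to -1.84 for Calhm6 and from -3.26 to -1.72 for Ifi204, and without sub-clusters 1 and 6 it moved from -3.49 to -1.11 for Thbs1. F10 encodes coagulation factor X and Thbs1 the matrix protein thrombospondin-1; both stood far higher in monocytes, at 747 and 5489 CPM in the WT library. H1f5, a linker histone, had 120 and 8 UMIs, with 61.7% of the WT sum in 1 cell. Its log2 ratio moved from -3.28 to -1.03 among the members that held Cd209a, with or without Flt3 (62 WT and 54 Ring1AKO). On the higher side, Gm42031 (11 and 169 UMIs) and Gm43305 (56 and 214) were also higher in the Ring1AKO library in each of the 5 other classes, with log2 ratios of 1.38 to 5.44. Cited2 was at 26.9 and 76.7 CPM and Txndc15 at 21.7 and 64.0 CPM. Some higher genes rested on a single Ring1AKO cell, which held 60.8% of S100a9, 61.3% of Ctla4, 51.5% of Procr and 83.9% of Mzb1.

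Among the markers of lymphocytes and other sorted cells, those of plasma cells had the largest sum (5439 and 9589 CPM). Igha, the heavy chain of immunoglobulin A, stood at 4140 and 7522 CPM in the members, against 69469 and 58438 CPM in barcodes under 100 UMIs. Igkc, the kappa light chain, stood at 5872 and 24547 CPM in the members, against 101770 and 96213 CPM in those barcodes. A single cell held 76.2% of the WT count of Igkc and another 78.4% of the Ring1AKO count. For Igha the richest cell of each library held 62.9% and 56.8%. At least 10 UMIs of Jchain were held by 1 WT and 5 Ring1AKO members. T cell markers summed to 12.6 and 45.1 CPM and natural killer cell markers to 6.29 and 16.6 CPM, while B cell markers reached 25.3 CPM at most. Neutrophil markers summed to 46.3 and 146 CPM, mostly S100a9, group 2 innate lymphoid cell markers to 147 and 366 CPM, mostly Areg, and mast cell markers to 125 and 117 CPM, mostly Kit. The part of these cells in the values of single genes was not tested. Without the Jchain-rich members the interferon-γ list's median was -2.69, and with the free-RNA profile subtracted it was -2.99.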

How the data were processed

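The authors deposited 1 matrix of raw UMI counts per library (10x Genomics 3′ chemistry) with 32228 genes in all barcodes, 74414511 UMIs for WT and 81862096 for Ring1AKO. The header names Cell Ranger 4, the study's methods another release on mm10, and the submitters' processing notes Cell Ranger 6.0.2 on mm39, so no coordinates of the counts are given. From the counts, CPM are UMIs summed over the members of a library per 1000000; ratios carry 1 added UMI, and a gene was measured with at least 50 UMIs over both libraries. Shares have Clopper-Pearson intervals, levels exact Poisson intervals and ratios exact conditional intervals (scipy 1.17.1). No test was run between the 2 libraries. The members, lists and alternatives were chosen with earlier results of these data known. Named genes were the 12 highest and 12 lowest ratios at 50 CPM or more in either library (without immunoglobulin, T cell receptor variable and rule genes), the list leaders and calls, and the 10 furthest from each class. Gene lists were written by hand; symbols absent from the files were not analysed here, and a few genes are counted in their lists but not reported here by name. Sub-clusters came from Leiden clustering (scanpy 1.11.5, leidenalg 0.10.2, Python 3.11.15, 1000 variable genes, 15 components, 15 neighbours, resolution 0.8). No doublet caller was run and none were removed. Ratio intervals were checked on simulated independent Poisson counts, which they assume, so the check does not cover counts gathered in a few cells.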

Additional observations from a re-analysis of the deposited data

Results flagged for a closer look

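Of the 24 genes with the highest and lowest ratios, 3 pointed the other way by at least 2-fold in another cell class where they had at least 50 UMIs. Chil3, a chitinase-like protein of monocytes, had a log2 ratio of -4.47 in the members and 1.67 in monocytes (1276 CPM in the WT library and 4064 CPM in the Ring1AKO library). Its ratio in the members was 0.95 without sub-clusters 1 and 6. It was 0.21 among the 62 WT and 54 Ring1AKO members that held Cd209a, so its direction there depended on which cells were counted. Il22ra2 had -4.07 in the members, where 1 WT cell held nearly all of it, and 1.07 in mature migratory dendritic cells (35.1 and 76.1 CPM). S100a9, a neutrophil calprotectin subunit, had 2.32 in the members, where 1 Ring1AKO cell held 60.8% of it, and -2.60 in mature migratory dendritic cells (209 and 33.1 CPM). Outside those 24 genes, Lyz2, lower in the Ring1AKO members, stood at 68.4 and 409 CPM in mature migratory dendritic cells, and Areg, higher in them, at 16.4 and 7.67 CPM in B cells. These differences between classes were not tested, since each class has 1 library per genotype.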

How the results depend on the processing

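No paired analysis was possible because each genotype had 1 library. The share ratio of the members (log2 -0.88) stayed below 0 under 14 of 15 alternatives. It was -0.35 without members rich in monocyte genes, and 0.04 (-1.03 to 1.12) once every barcode with 2 or more UMIs of Cd79a and Jchain was removed, which left 16 of 1108 WT and 12 of 806 Ring1AKO barcodes. The counts of genes past 2-fold (393 lower and 63 higher of 5266) moved most with the minimum, which also sets how many genes are tested. At 20 UMIs they were 710 and 151 of 7523 (9.44% and 2.01%). At 200 UMIs they were 80 and 15 of 1997 (4.01% and 0.751%), and the type I interferon median was -0.96. With the free-RNA profile subtracted, 9.48% were lower and 1.33% higher. Scaling by the median of ratios gave 236 and 122 (4.48% and 2.32%), and the mean of each cell's CPM 98 higher (1.86%). Among the members that held Cd209a (62 WT and 54 Ring1AKO), 184 of 3410 genes were lower (5.4%). Without members rich in monocyte genes 207 of 4394 genes were lower (4.71%). The medians there were -0.44 over 17 type I interferon genes and -0.64 over 3 monocyte markers. Without sub-clusters 1 and 6, added after seeing the data, 257 of 4209 were lower (6.11%) and the monocyte median was -0.81. The medians of the interferon-γ (-2.99 to -1.56), MHC class II (0.19 to 0.43) and mature migratory (1.32 to 2.05) lists kept their side under all 18 alternatives. Over 24 named genes and 18 alternatives, 6 of 432 values turned and 4 fell short of 2-fold. Chil3 turned to 0.21 among the members that held Cd209a and to 0.95 without the sub-clusters. Il22ra2 turned to 2.21 among the members that held Cd209a and to 0.18 without the deepest 5% of members. Mzb1 turned to -1.87 without members rich in monocyte genes and to -1.30 without the deepest 5%. The causes were not tested. Depth limits genes under 50 UMIs, and 220 cells limit the sub-clusters.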

Other observations

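Of barcodes outside the filter that otherwise met the rule, 2 in the WT library and 5 in the Ring1AKO library had 5% or more mitochondrial UMIs, and 1 in the WT library was too shallow. Mt1, a metallothionein outside the lists, stood at 344 CPM in the WT members and 878 CPM in the Ring1AKO members, and was picked after its values were seen.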
